A study of Mus musculus with 4 samples.

Results

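BCL6 is the DNA-binding repressor for which BCOR, the BCL6 corepressor, is named. The 9 genes described here are *Bcl6*, the NCoR complex genes *Ncor1*, *Hdac3*, *Tbl1x*, *Tbl1xr1* and *Gps2*, and the histone deacetylase and scaffold genes *Hdac1*, *Hdac2* and *Sin3a*. They were chosen by symbol, with earlier results of these data known, and all 9 had a place among the 12067 genes of the deposited count table. None of the 9 genes passed the test between genotypes. *Bcl6* had the widest gap of the 9 between the *Bcor*WT libraries, and the table also lists a near-identical copy of *Hdac1*, *Gm10093*.

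The measurements were Quant-seq 3′ RNA counts of mouse KL cells, which are marrow progenitors of the myeloid lineage that carry c-Kit but neither Sca-1 nor lineage markers. Whole marrow was transplanted into irradiated *Ptprca* mice, and after 20 weeks the donor-derived cells (CD45.2+) were sorted. There were 2 libraries from *Bcor*ΔE9-10 marrow (genotype scl-Cre-ERT +; Bcorfl/y) and 2 from *Bcor*WT marrow (genotype Bcorfl/y). Both groups carried the *Bcor* allele with loxP sites around exons 9 and 10 on the single X chromosome of male donors, so that wild type here meant a floxed allele without Cre. The Cre was a tamoxifen-activated form driven by a stem cell element of *Scl* (*Tal1*), which limits first recombination to cells using that element, and the recipients were female mice whose own haematopoietic cells were kept out only by the CD45.2 gate. Donors of both genotypes were treated with tamoxifen. The sources used here do not say which libraries came from separate animals, so each test measures the spread between libraries. In such sorted samples, fewer cells using a gene and less RNA of it per cell cannot be told apart.

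As background, BCL6 binds DNA through zinc fingers, and a groove of its BTB domain holds BCOR or NCoR (from *Ncor1*). NCoR activates the deacetylase HDAC3 and is held together with the WD40-repeat proteins TBL1X and TBL1XR1 and the small subunit GPS2, whereas HDAC1 and HDAC2 work in the Sin3, NuRD and CoREST complexes. BCL6 is best known in germinal centre B cells and follicular helper T cells, and it is also used in myeloid cells.

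Totals ran from 3825289.5 to 6253100.5 counts. The floor used here, 3 counts, corresponded to between 0.480 and 0.784 CPM (the count scaled by library size alone). Gene levels given below are CPM scaled also for library composition, and each of the 9 genes was well above the floor. The ribosomal RNA-like gene *Gm42418* took between 1.43% and 27.9% of counts, and these extremes were the libraries of *Bcor*WT replicates 2 and 1. Of the KL progenitor markers, 9 of 9 were in the table, with a summed level of 8559 and 11266 CPM in the *Bcor*ΔE9-10 libraries and 11388 and 11415 CPM in the *Bcor*WT libraries. The 9 mature neutrophil markers ranged from 63071 to 154393 CPM in sum, the extremes being the *Bcor*ΔE9-10 replicates. Of 7 stem cell markers 3 were in the table, summing to between 22.8 and 42.3 CPM, and of 6 T cell markers 1, *Lck*, at 2.28 to 6.96 CPM. B cell markers summed to between 15.0 and 25.6 CPM over the 3 of 7 that were in the table, and *Ms4a1* and *Pax5* were not in it. *Bcor* itself gave 104 and 113 counts (19.2 and 18.4 CPM) in libraries labelled *Bcor*ΔE9-10 and 58 and 79 counts (16.9 and 14.9 CPM) in those labelled *Bcor*WT. A 3′ count does not read the deleted exons, so it checks neither the deletion nor the labels.

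*Bcl6* (ENSMUSG00000022508) lies on the minus strand of chr16:23965052-23988852 (mm10). RefSeq promoter entries (GRCm38.p6) matched 7 of the 9 genes, all but *Hdac1* and *Hdac3*. The windows before the 2 RefSeq starts of *Bcl6* are shown because, of those 7 genes, it alone had the letters TTCNNNGAA in a window, the palindromic core that STAT factors bind and that BCL6 sites resemble. In the windows of 250 bases printed here, from 5′ to 3′ on the gene's strand, capitals mark each match, and neither window overlapped an annotated exon.
Bcl6 chr16:23988853-23989102 minus strand: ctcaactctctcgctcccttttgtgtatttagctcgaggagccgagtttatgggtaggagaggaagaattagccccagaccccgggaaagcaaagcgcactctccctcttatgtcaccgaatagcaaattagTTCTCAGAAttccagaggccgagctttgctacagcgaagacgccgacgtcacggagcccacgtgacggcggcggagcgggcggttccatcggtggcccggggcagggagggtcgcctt
Bcl6 chr16:23981284-23981533 minus strand: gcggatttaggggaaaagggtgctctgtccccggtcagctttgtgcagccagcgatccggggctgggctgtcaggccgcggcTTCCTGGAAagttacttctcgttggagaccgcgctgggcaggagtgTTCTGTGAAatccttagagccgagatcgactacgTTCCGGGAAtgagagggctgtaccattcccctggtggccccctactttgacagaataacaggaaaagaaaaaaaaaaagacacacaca
The first window held 1 match, which began 118 bases before the start. The second held 3, which began 168, 122 and 88 bases before it. On both strands the same letters occurred in 7.02% of 32851 promoter windows of this length. The stricter forms TTCNTAGAA and TTCCTAGAA, whose matches are all matches of TTCNNNGAA, occurred in 0.947% and 0.347% of the windows and in none of those of the 7 genes. A match describes the letters only and is not a measured binding site.

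*Bcl6* gave 102 and 136 counts in replicates 1 and 2 of *Bcor*ΔE9-10, and 45 and 177 counts in those of *Bcor*WT. Scaled for library size and composition, these were 18.9 and 22.2 CPM against 13.1 and 33.3 CPM. Both *Bcor*ΔE9-10 libraries lay between the *Bcor*WT libraries, so the groups overlapped completely. For *Bcor*ΔE9-10 the mean level was 20.5 ± 2.35 CPM, and for *Bcor*WT it was 23.2 ± 14.3 CPM (SD, n = 2 each). The log2 fold change of *Bcl6*, *Bcor*ΔE9-10 over *Bcor*WT, was -0.19 (SE 0.47, 95% interval -1.27 to 0.89), with an adjusted p of 0.974 by edgeR's quasi-likelihood test with Benjamini-Hochberg adjustment over all genes. The interval spans 0.414-fold to 1.85-fold, and a change within those bounds cannot be told from none.

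The separation within *Bcor*WT was the larger measurement for *Bcl6*. *Bcor*WT replicate 2 had 2.53 times the CPM of replicate 1, and the counting intervals (95%, Poisson) of 28.6 to 38.6 CPM and 9.59 to 17.6 CPM did not meet. The *Bcor*ΔE9-10 libraries differed 1.18-fold, and their counting intervals overlapped. On the log2 scale the *Bcor*WT gap of 1.32 stood at percentile 91.7 among the 1000 genes of most similar depth, whose median gap was 0.52. The *Bcor*ΔE9-10 gap stood at percentile 43.7. Without *Bcor*WT replicate 1 the log2 fold change of *Bcl6* was -0.70 (edgeR's quasi-likelihood test, unadjusted p = 0.0431, adjusted p = 0.185), in a fit in which 25.0% of all genes had an unadjusted p under 0.05. Without *Bcor*WT replicate 2 it was 0.64 (adjusted p = 0.907), so the direction for *Bcl6* rested on which *Bcor*WT library was kept. A fit with 1 library left out has 1 library in an arm, which is assumed to vary like the other group, so its p is no measure of stability. The *Bcor*WT replicates also stood at the 2 ends of the *Gm42418* share, and the part of that difference in the *Bcl6* gap was not tested.

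**Figure D1:**
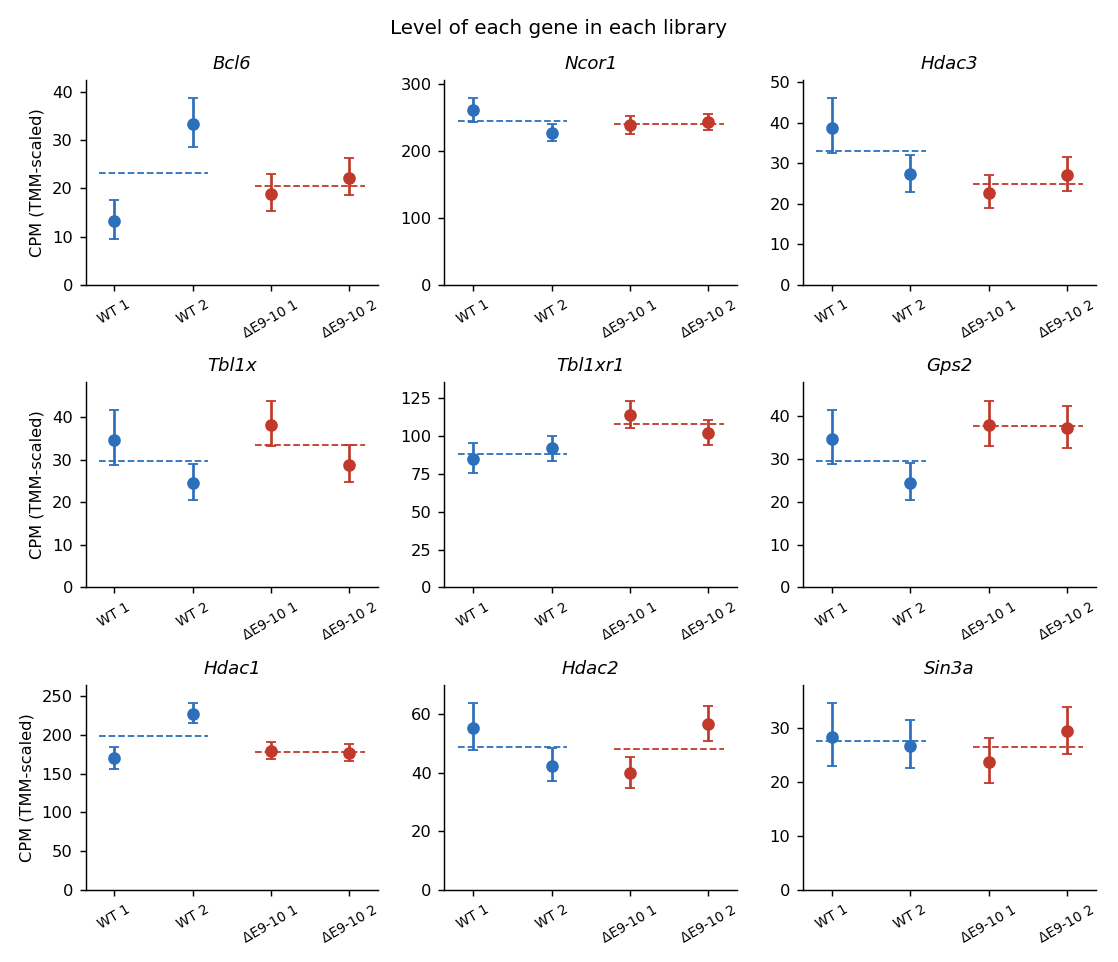
Level of each of the 9 genes in each library, in CPM scaled by TMM factors on a linear axis from 0, with *Bcor*WT in blue and *Bcor*ΔE9-10 in red. Points are single libraries, bars their 95% Poisson counting intervals and dashed lines the group means. *Bcl6* spans 13.1 to 33.3 CPM within *Bcor*WT and encloses both *Bcor*ΔE9-10 points.

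By the Euclidean distance between log2 CPM profiles centred on their own mean over the 4 libraries, the closest of 8134 genes to *Bcl6* were *Slc16a6* (distance 0.0795), *Pcbd2* (0.0945) and *Pigb* (0.0960). *Slc16a6*, of the monocarboxylate transporter family, had 111 and 121 CPM in *Bcor*ΔE9-10 and 76.5 and 183 CPM in *Bcor*WT. *Pcbd2*, a pterin dehydratase gene, had 29.2 and 32.1 CPM against 20.2 and 47.6 CPM. *Pigb*, a mannosyltransferase gene of GPI anchor synthesis, had 41.2 and 48.4 CPM against 29.5 and 67.7 CPM. In all 3, as in *Bcl6*, *Bcor*WT replicate 1 was lowest and replicate 2 highest, with the *Bcor*ΔE9-10 libraries between. With 4 libraries, close profiles can be common among so many genes. Over the whole table both *Bcor*ΔE9-10 libraries lay between the *Bcor*WT libraries for 25.2% of genes, against 3 of the 9 genes here (*Bcl6*, *Ncor1* and *Hdac1*).

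Across the 9 genes, none passed an adjusted p of 0.05 in edgeR's quasi-likelihood test, where 2 of 12067 genes (0.0166%) did. None had an unadjusted p under 0.05, against 533 genes or 4.42% of the table. Log2 fold changes ran from -0.40 for *Hdac3* to 0.35 for *Gps2*, with 3 genes above 0 and 6 below, where 47.7% of all genes were above 0. The median was -0.02, beside -0.03 over all genes, and the median size regardless of sign was 0.18, beside 0.33. The groups did not overlap for 3 genes, *Tbl1xr1* and *Gps2* being higher in both *Bcor*ΔE9-10 libraries and *Hdac3* lower in both, and such separation was seen for 33.9% of all genes (16.8% higher, 17.1% lower). With 2 libraries against 2, an exact permutation test of a single gene cannot go below a two-sided p of 0.333. Summed over the 9 genes, the level was 713 and 723 CPM in *Bcor*ΔE9-10 and 720 and 725 CPM in *Bcor*WT.

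The NCoR complex genes lie apart in the genome (mm10), *Ncor1* at chr11:62316426-62458541, *Hdac3* at chr18:37935844-37955016, *Tbl1x* at chrX:77511013-77662983, *Tbl1xr1* at chr3:22076652-22216594 and *Gps2* at chr11:69913888-69916591. *Ncor1* encodes the scaffold NCoR. It gave 1289 and 1488 counts (238 and 243 CPM) in *Bcor*ΔE9-10 and 891 and 1205 counts (260 and 227 CPM) in *Bcor*WT. Both *Bcor*ΔE9-10 libraries lay between the *Bcor*WT libraries. *Ncor1* had a log2 fold change of -0.02 (SE 0.31, 95% interval -0.74 to 0.70), with an adjusted p of 0.996 by edgeR's quasi-likelihood test. *Ttc19*, on the opposite strand, overlaps *Ncor1* and gave only 62 to 69 counts in a library. Whether the counting used strand is not given in the sources used here.

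*Hdac3*, the deacetylase that NCoR switches on, had the lowest log2 fold change and the smallest p of the 9 genes. It gave 123 and 166 counts (22.7 and 27.1 CPM) in *Bcor*ΔE9-10 and 133 and 145 counts (38.8 and 27.3 CPM) in *Bcor*WT. The groups did not overlap, but *Bcor*ΔE9-10 replicate 2 and *Bcor*WT replicate 2 nearly met, and *Bcor*WT replicate 1 alone stood clear of the others. Its log2 fold change was -0.40 (SE 0.34, 95% interval -1.19 to 0.39), with an unadjusted p of 0.271 and an adjusted p of 0.945 by edgeR's quasi-likelihood test. Leaving out *Bcor*WT replicate 1 gave -0.14, and leaving out replicate 2 gave -0.64. The genes with the closest profiles to *Hdac3* over the 4 libraries were *Zdhhc5* (distance 0.0744), a palmitoyltransferase gene, *Rbm4* (0.105), an RNA-binding protein gene, and *Det1* (0.109), a ubiquitin ligase component gene.

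*Tbl1xr1* and *Tbl1x* encode the paired WD40-repeat subunits. *Tbl1xr1* gave 615 and 626 counts (114 and 102 CPM) in *Bcor*ΔE9-10 and 290 and 487 counts (84.7 and 91.6 CPM) in *Bcor*WT. Both *Bcor*ΔE9-10 libraries were above both *Bcor*WT libraries. For *Tbl1xr1* the log2 fold change was 0.29 (SE 0.30, 95% interval -0.41 to 0.99), with an adjusted p of 0.946 by edgeR's quasi-likelihood test, and leaving out any 1 library kept it between 0.21 and 0.37. *Tbl1x* gave 207 and 177 counts (38.3 and 28.9 CPM) against 119 and 130 counts (34.8 and 24.5 CPM). Replicate 1 was the higher library in each genotype, and the groups overlapped. Its log2 fold change was 0.18 (SE 0.35, adjusted p = 0.965, edgeR's quasi-likelihood test), and it turned to -0.05 without *Bcor*WT replicate 2 and -0.03 without *Bcor*ΔE9-10 replicate 1. *Tbl1x* made up 25.2% (95% Wilson interval 22.3 to 28.3) and 22.0% (19.3 to 25.0) of the summed *Tbl1x* and *Tbl1xr1* counts in *Bcor*ΔE9-10, and 29.1% (24.9 to 33.7) and 21.1% (18.0 to 24.5) in *Bcor*WT. These shares overlapped between groups. Such intervals and floors cover counting error only, and shares of 3′ counts also depend on how well each transcript end is captured.

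*Gps2*, whose product bridges the scaffold and the WD40-repeat subunits, had the highest log2 fold change of the 9 genes. It gave 206 and 229 counts (38.1 and 37.3 CPM) in *Bcor*ΔE9-10 and 119 and 130 counts (34.8 and 24.5 CPM) in *Bcor*WT, the latter equal to the *Tbl1x* counts. The groups did not overlap, with *Bcor*WT replicate 1 the closer of its group to the *Bcor*ΔE9-10 libraries. For *Gps2* the log2 fold change was 0.35 (SE 0.33, 95% interval -0.42 to 1.12), with an adjusted p of 0.945 by edgeR's quasi-likelihood test. It stayed above 0 with any 1 library left out, between 0.12 and 0.62. *Gm5221*, a processed pseudogene similar to *Gps2*, was not in the table.

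**Figure D2:**
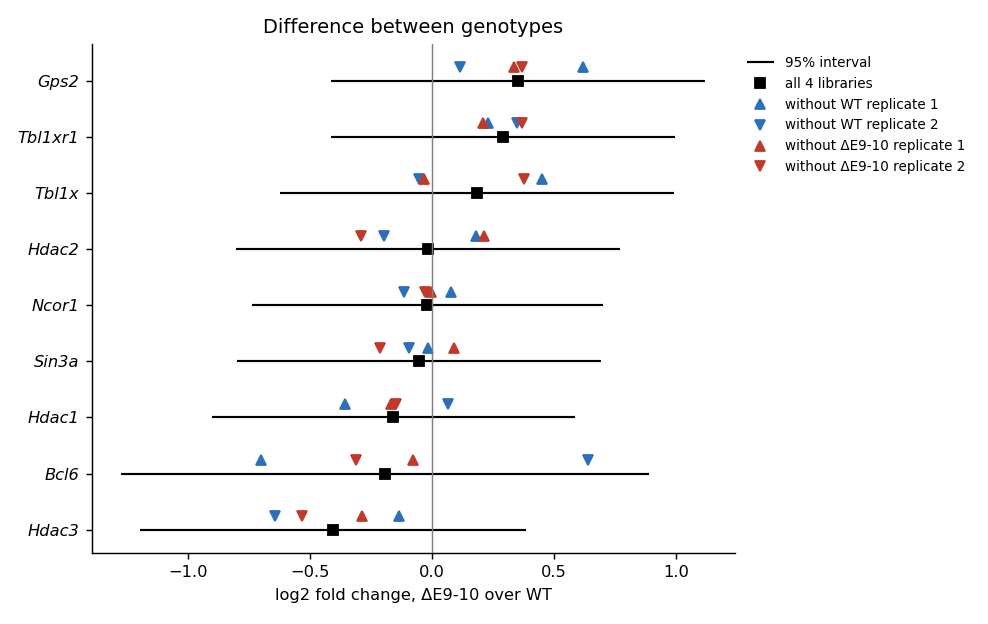
Log2 fold change of each of the 9 genes, *Bcor*ΔE9-10 over *Bcor*WT. Squares are the edgeR estimates from all 4 libraries with 95% intervals, and triangles are estimates with 1 library left out (blue for a *Bcor*WT library, red for a *Bcor*ΔE9-10 library). Every interval crosses 0, and the triangles of *Bcl6* span -0.70 to 0.64.

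*Hdac2* (chr10:36974544-37001889), a class I deacetylase, gave 215 and 347 counts (39.7 and 56.6 CPM) in *Bcor*ΔE9-10 and 189 and 225 counts (55.2 and 42.3 CPM) in *Bcor*WT. Replicate 2 was the higher library in *Bcor*ΔE9-10 and replicate 1 in *Bcor*WT, and the groups overlapped. *Hdac2* had a log2 fold change of -0.02 (SE 0.34, 95% interval -0.80 to 0.77, adjusted p = 0.997, edgeR's quasi-likelihood test). Its *Bcor*ΔE9-10 gap, 1.42-fold, stood at percentile 83.4 among genes of similar depth. *Sin3a* (chr9:57072040-57128366), the scaffold of the Sin3 complex, gave 128 and 180 counts (23.7 and 29.3 CPM) against 97 and 142 counts (28.3 and 26.7 CPM). The *Bcor*WT libraries lay between the *Bcor*ΔE9-10 libraries. Its log2 fold change was -0.05 (SE 0.32, 95% interval -0.80 to 0.69, adjusted p = 0.993, edgeR's quasi-likelihood test). *Man2c1os*, an antisense gene that overlaps *Sin3a*, gave between 13 and 63 counts in a library. If strand was not used, the effect of this overlap on the *Sin3a* counts cannot be read from these values. *Sin3a* made up 17.3% (95% Wilson interval 14.7 to 20.2) and 21.4% (18.7 to 24.3) of the summed *Sin3a* and *Sin3b* counts in *Bcor*ΔE9-10, and 20.5% (17.1 to 24.4) and 11.5% (9.82 to 13.4) in *Bcor*WT, with groups that overlapped.

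*Hdac1*, the other class I deacetylase of the Sin3, NuRD and CoREST complexes, gave 972 and 1087 counts (180 and 177 CPM) in *Bcor*ΔE9-10 and 583 and 1210 counts (170 and 228 CPM) in *Bcor*WT. Both *Bcor*ΔE9-10 libraries lay between the *Bcor*WT libraries. *Hdac1* had a log2 fold change of -0.16 (SE 0.32, 95% interval -0.90 to 0.59), with an adjusted p of 0.969 by edgeR's quasi-likelihood test, and it was 0.07 without *Bcor*WT replicate 2. *Hdac1* made up 81.9% and 75.8% of the summed *Hdac1* and *Hdac2* counts in *Bcor*ΔE9-10, beside 75.5% and 84.3% in *Bcor*WT, again with groups that overlapped.

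The *Hdac1* count is to be read with that of a near-identical copy in the table, and how many reads the pair shares was not tested. *Gm10093* is a processed pseudogene on the plus strand of chr17:78491582-78493025 (mm10), named here after its values were seen, while *Hdac1* lies at chr4:129516104-129542713 on the minus strand. Over the 1444 bases of the copy there were 9 substitutions, an identity of 99.4%. They were G342A, C408T, T441A, A460G, C465T, C472T, T482C, T719C and C1170A, with the *Hdac1* base first and positions counted from the A of its start codon. Of 1370 windows of 75 bases, the length of the reads before trimming, 1005 (73.4%) were identical in both genes. The last 500 compared bases held 1 substitution, and 82.4% of their windows were identical. The 510 *Hdac1* transcript bases that follow, at the 3′ end, are not in the annotated copy. The stretch with most differences, positions 408 to 482, is shown with capitals at the 6 bases that differ.
Hdac1: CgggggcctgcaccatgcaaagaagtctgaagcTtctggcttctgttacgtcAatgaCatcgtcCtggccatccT
Gm10093: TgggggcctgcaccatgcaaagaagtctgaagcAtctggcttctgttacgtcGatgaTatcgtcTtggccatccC
A read from such a stretch can be assigned to its gene, whereas a read from an identical window cannot. Other copies of *Hdac1* in the annotation (*Gm21834*, *Gm4864* and *AC125456.1*) and one of *Ncor1* (*Gm6743*) were not in the table.

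*Gm10093* gave 225 and 162 counts (41.6 and 26.4 CPM) in *Bcor*ΔE9-10 and 563 and 1192 counts (164 and 224 CPM) in *Bcor*WT. Both *Bcor*ΔE9-10 libraries were far below both *Bcor*WT libraries. The log2 fold change of *Gm10093* was -2.52 (SE 0.38, 95% interval -3.40 to -1.63), with an unadjusted p of 1.86e-04 and an adjusted p of 0.281 by edgeR's quasi-likelihood test. It therefore did not pass the threshold in that test, though it did in DESeq2 (adjusted p = 2.26e-06). With 1 *Bcor*WT library alone in its arm the adjusted p was 0.00441 (without replicate 1) and 0.0228 (without replicate 2), which does not take up the spread within *Bcor*WT. *Gm10093* held 18.8% (95% Wilson interval 16.7 to 21.1) and 13.0% (11.2 to 14.9) of the counts of the pair in *Bcor*ΔE9-10, and 49.1% (46.2 to 52.0) and 49.6% (47.6 to 51.6) in *Bcor*WT. Where its reads came from was not tested.

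Added together, *Hdac1* and *Gm10093* gave 1197 and 1249 counts (221 and 204 CPM) in *Bcor*ΔE9-10 and 1146 and 2402 counts (335 and 452 CPM) in *Bcor*WT. On this scale both *Bcor*ΔE9-10 libraries were below both *Bcor*WT libraries. The log2 fold change of the sum was -0.89 (SE 0.33, 95% interval -1.66 to -0.12), with an unadjusted p of 0.0282 and an adjusted p of 0.944 by edgeR's quasi-likelihood test. The direction was that of *Hdac1* alone and the size was larger. This addition was chosen after the values were seen.

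**Figure D3:**
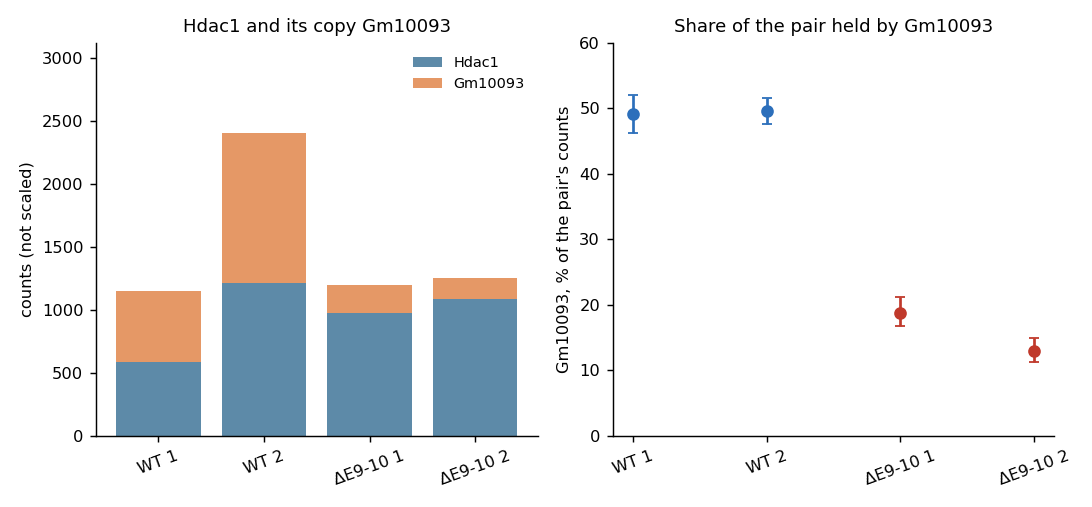
Left, unscaled counts of *Hdac1* and of *Gm10093* stacked for each library on an axis from 0. Right, the percent of the pair's counts held by *Gm10093*, with 95% Wilson intervals (*Bcor*WT in blue, *Bcor*ΔE9-10 in red), at 49.1% and 49.6% in *Bcor*WT and 18.8% and 13.0% in *Bcor*ΔE9-10.

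**Figure D4:**
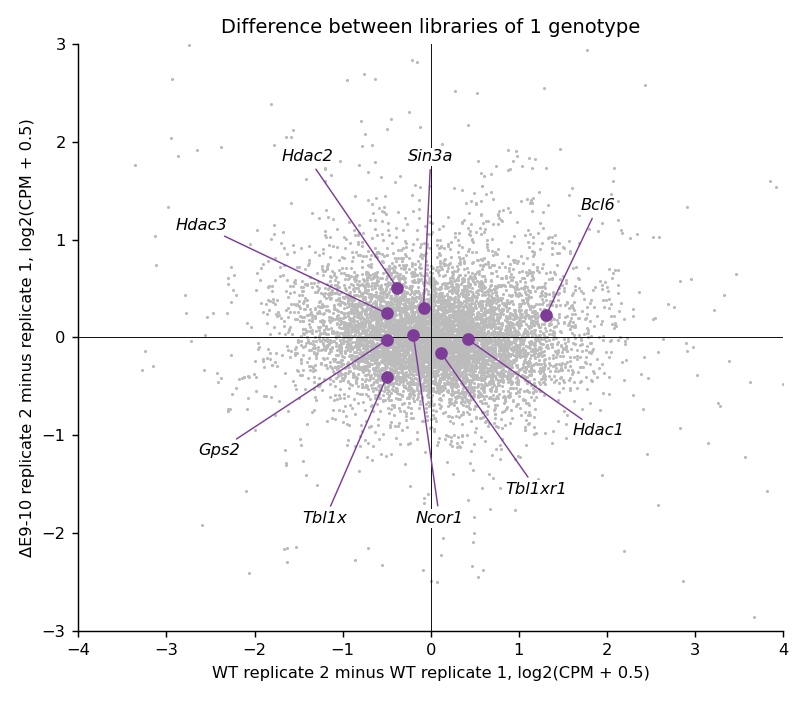
Difference between the 2 libraries of each genotype on the log2(CPM + 0.5) scale, replicate 2 minus replicate 1, for *Bcor*WT (horizontal) and *Bcor*ΔE9-10 (vertical). Grey points are the 8134 genes with a mean of at least 50 counts, of which 49 lie outside the axes, and purple points are the 9 genes. *Bcl6* lies farthest from 0 of the 9 along the *Bcor*WT axis.

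The plot of within-genotype differences sets the 9 genes beside the table. After *Bcl6* at 1.32, the largest *Bcor*WT gaps on the log2 scale were -0.50 for *Hdac3*, *Tbl1x* and *Gps2*, at percentiles 50.3 to 51.6 of genes of similar depth. *Tbl1xr1* and *Sin3a* were the steadiest, at percentiles 12.3 and 9.0. In *Bcor*ΔE9-10 the widest gap was that of *Hdac2*, and *Hdac1*, *Ncor1* and *Gps2* stood at percentiles 3.8, 5.9 and 6.3.

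The remaining genes of the same complexes were described by lists. Of 9 NCoR partner genes, 3 lay above 0 and 6 below it, with a median log2 fold change of -0.15, and none had an unadjusted p under 0.05. *Coro2a*, a coronin found with the complex, was at 0.52, with 136 and 135 counts against 66 and 73, and ran from 0.29 without *Bcor*WT replicate 2 to 0.77 without replicate 1. *Hdac4*, a class IIa deacetylase that binds through the scaffold, was at -0.85 (SE 0.45), with 206 and 374 counts against 188 and 654, so that *Bcor*WT replicate 2 alone was high, and was -0.15 without that library. The plot of genes by complex shows the spread of each list around the median of all genes.

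Of 16 further Sin3 complex genes, 9 were higher and 7 lower (median 0.11), and of 12 NuRD genes 5 were higher and 7 lower (median -0.01). None of either list had an unadjusted p under 0.05. *Arid4b*, a chromatin-binding Sin3 subunit, was at 0.51, with 446 and 496 counts against 230 and 253, and ran from 0.28 without *Bcor*WT replicate 2 to 0.77 without replicate 1. *Brms1*, another Sin3 subunit, was at -1.45 with 32 and 36 counts against 18 and 141, and was 0.16 without *Bcor*WT replicate 2. *Rbbp4*, the histone chaperone shared by Sin3 and NuRD, was at 0.43 with 1359 and 1473 counts against 621 and 971. *Mbd3*, a core NuRD subunit, was at -0.78 with 172 and 145 counts against 115 and 326, and was -0.28 without *Bcor*WT replicate 2. Of 9 CoREST genes, 4 were higher and 5 lower (median -0.03), with the scaffold gene *Rcor1* the highest, at 0.30, among genes with a mean of at least 50 counts.

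**Figure D5:**
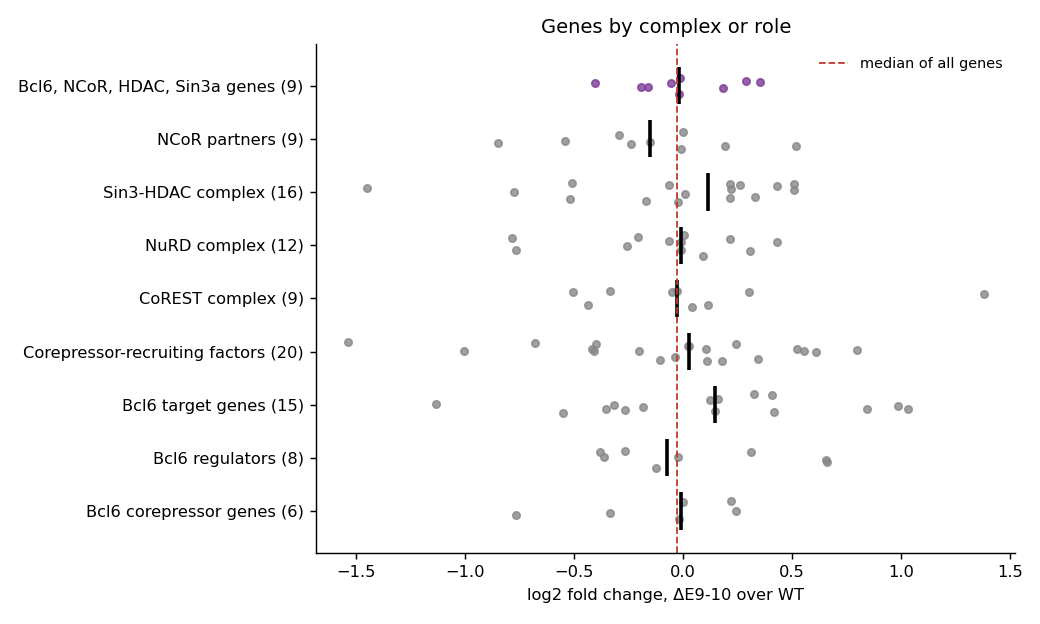
Log2 fold change, *Bcor*ΔE9-10 over *Bcor*WT, of each gene of each list, with the number of genes in brackets. Each point is 1 gene, short black bars are list medians and the dashed line is the median of all genes (-0.03). List medians lie between -0.15 and 0.15.

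Factors that recruit these corepressors were also examined, 20 of 26 being in the table, 11 higher and 9 lower, with a median of 0.03. *Rara*, the retinoic acid receptor alpha gene, was the only one with an unadjusted p under 0.05, where 3.07% of all genes were lower at that level. It gave 11 and 24 counts (2.03 and 3.91 CPM) in *Bcor*ΔE9-10 and 19 and 62 counts (5.55 and 11.7 CPM) in *Bcor*WT, with a log2 fold change of -1.53 (SE 0.63, edgeR's quasi-likelihood test, unadjusted p = 0.0411, adjusted p = 0.945). With 1 library left out in turn, its log2 fold change ran from -2.08 to -0.89, the latter without *Bcor*WT replicate 2. *Mxi1*, a MYC antagonist that recruits Sin3, was at 0.56 with 205 and 374 counts against 103 and 197, and was 0.18 without *Bcor*ΔE9-10 replicate 2. *Spen*, a corepressor scaffold, was at -1.01 with 253 and 308 counts against 161 and 782, again with *Bcor*WT replicate 2 alone high, and was 0.04 without that library.

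Genes that BCL6 is known to repress in B cells, or that are closely linked to it, were listed next. Of 19 such genes 15 were in the table, 9 of them above 0 and 6 below, with a median of 0.15. *Cdkn1a*, which encodes the cell cycle inhibitor p21, gave 181 and 146 counts (33.5 and 23.8 CPM) against 48 and 79 counts (14.0 and 14.9 CPM). Both *Bcor*ΔE9-10 libraries were above both *Bcor*WT libraries, and its log2 fold change was 0.98 (SE 0.36, edgeR's quasi-likelihood test, unadjusted p = 0.0260, adjusted p = 0.945). *Id2*, which encodes an inhibitor of basic helix-loop-helix factors, gave 471 and 725 counts (87.0 and 118 CPM) against 198 and 300 counts (57.8 and 56.5 CPM), with a log2 fold change of 0.84 (SE 0.32, unadjusted p = 0.0313, adjusted p = 0.945, edgeR's quasi-likelihood test). Neither passed after adjustment. With 1 library left out, the log2 fold change ran from 0.72 to 1.21 for *Cdkn1a* and from 0.61 to 1.05 for *Id2*. Of all genes, 1.34% were higher at that level, beside these 2 of 15. *Bcl2l1*, the gene of the survival factor BCL-XL, was at the other end at -1.13, with 101 and 115 counts against 50 and 354, and was 0.36 without *Bcor*WT replicate 2. *Prdm1* and *Irf4*, best known among the targets in B cells, were not in the table.

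In the same libraries the summed levels did not overlap between the groups for erythroid markers, which were higher in *Bcor*ΔE9-10, and for basophil, mast cell or eosinophil, monocyte and macrophage, KL progenitor, B cell and T cell markers, which were lower. The KL progenitor sums nearly met, and *Mpo*, whose own levels overlapped, was their largest part in each library. Of these 9 markers 4 were higher, *Myb* (0.56) in both *Bcor*ΔE9-10 libraries. Of the 3 B cell genes *Cd79b* and *Ebf1* overlapped, and the T cell value was that of *Lck* alone. Single genes did not overlap in 33.9% of the table, and 1.34% of genes were higher and 3.07% lower with an unadjusted p under 0.05. The 6 of 9 erythroid markers in the table summed to 81.5 and 74.2 CPM in *Bcor*ΔE9-10 and 21.0 and 50.8 CPM in *Bcor*WT. Of these, 5 were higher, and *Gata1* overlapped between the groups, with a log2 fold change of -0.02. Those with an unadjusted p under 0.05 were 2 (*Hba-a2* and *Klf1*), both higher, *Klf1* having 1 and 4 counts in *Bcor*WT, near the floor. The 6 of 6 basophil, mast cell or eosinophil markers summed to 258 and 219 CPM against 539 and 668 CPM, and 4 (*Cpa3*, *Mcpt8*, *Prss34* and *Epx*) were lower at that level. Monocyte and macrophage markers, 4 of 7 in the table, summed to 472 and 540 CPM against 605 and 1442 CPM. Their largest part in each library was *Ly6c2*, at 429 and 491 CPM against 550 and 1365 CPM. Of the 4 genes, 3 were lower in both *Bcor*ΔE9-10 libraries, and *Ccr2* overlapped, with a log2 fold change of 0.03. The megakaryocyte markers, 4 of 6, summed to 108 and 141 CPM against 110 and 266 CPM, and *Pf4* was lower with an unadjusted p under 0.05. Their part in the values of *Cdkn1a*, *Id2*, *Rara* or the 9 genes was not tested.

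Of 10 genes known to act on *Bcl6* or its protein, 8 were in the table, 3 higher and 5 lower (median -0.07), and none had an unadjusted p under 0.05. *Fbxo11*, the ubiquitin ligase component that marks BCL6 for degradation, was highest at 0.66 (SE 0.31, edgeR's quasi-likelihood test, unadjusted p = 0.0666), with 215 and 237 counts against 88 and 127. *Stat5b*, a STAT factor that acts on *Bcl6*, was lowest at -0.38, with 269 and 257 counts against 128 and 433, and was 0.29 without *Bcor*WT replicate 2. Among the 6 corepressor genes of BCL6, which include *Ncor1*, *Bcor* was at 0.25 (SE 0.36, adjusted p = 0.961) and *Ctbp1*, the C-terminal binding protein gene, at -0.33 (adjusted p = 0.946), both by edgeR's quasi-likelihood test. Without *Bcor*WT replicate 2 *Bcor* was at 0.15 and *Ctbp1* at -0.038. The list split into 3 higher and 3 lower, with a median of -0.01.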

How the data were processed

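Reads of low quality were removed by the authors, who then cut the random-primer bases and poly-A tails with cutadapt (1.7 per the submitters' processing notes), aligned to mm10 by HISAT2 and obtained gene counts by featureCounts of Subread. The deposited counts are not normalized and cover genes above a level not given in the sources used here. Because 1 gene had values that were not whole in *Bcor*ΔE9-10 replicate 2 and in *Bcor*WT replicate 1, these 2 deposited columns were read as holding expected counts and rounded. edgeR 4.0.16 (R 4.3.3) was run with filterByExpr, TMM, a prior count of 0.125, quasi-likelihood F tests and Benjamini-Hochberg adjustment over 12067 genes. SE was the size of the log2 fold change over the square root of F. Scripts were tested on simulated data. Alternatives were DESeq2 1.42.0, limma-voom (limma 3.58.1), DESeq2 size factors, an unfiltered table, a minimum of 10 counts in each library, a prior count of 2, removal of *Gm42418*, a replicate block and leaving out each library. Totals of 3825289.5 to 6253100.5 counts set the precision. Transcripts and positions came from GENCODE on GRCm38, and copies from blastn 2.17.0. Named genes were the 9 genes, *Bcor*, the highest and lowest gene of each list (mean of at least 50 counts), list genes with an unadjusted p under 0.05, the 3 closest profiles of *Bcl6* and of the gene with the smallest p, and copies of the 9. The genes and lists were chosen with earlier results of these data known. Some genes are not reported here.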

Additional observations from a re-analysis of the deposited data

How the results depend on the processing

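None of the 9 genes passed an adjusted p of 0.05 in any of the 12 alternatives planned, and each named gene that changed direction did so only with a library left out. The number of genes with an adjusted p under 0.05, 2 in all, was 43 with DESeq2, 14 with the replicate block, 5 with a minimum of 10 counts in each library and 4 with limma-voom, and between 6 and 596 with 1 library left out, the highest being without *Bcor*WT replicate 1. Genes with an unadjusted p under 0.05 numbered between 243 and 3013, and among the 9 genes 0 to 1 had such a p and 3 to 5 were higher. The median log2 fold change of the 9 genes ran from -0.15 to 0.080 with 1 library left out, and that of all genes from -0.041 to 0.025, being -0.0035 with limma-voom, -0.011 with the replicate block and -0.040 without *Gm42418*. With 1 library left out, list medians ran from -0.026 to 0.38 for Sin3, -0.13 to -0.012 for NuRD, -0.18 to 0.16 for CoREST, -0.26 to -0.088 for NCoR partners, -0.13 to 0.14 for recruiting factors, -0.031 to 0.51 for BCL6 target genes, -0.17 to 0.16 for regulators of *Bcl6* and -0.15 to 0.11 for its corepressor genes. In the same fits, log2 fold changes ran from -0.70 to 0.64 for *Bcl6* (-0.056 with the replicate block), -0.11 to 0.080 for *Ncor1*, -0.052 to 0.45 for *Tbl1x*, -0.36 to 0.067 for *Hdac1*, -0.29 to 0.22 for *Hdac2*, -0.21 to 0.093 for *Sin3a*, -2.17 to 0.16 for *Brms1*, -1.61 to 0.044 for *Spen*, -1.84 to 0.36 for *Bcl2l1*, -0.84 to 0.29 for *Stat5b*, -0.67 to 0.60 for *Slc16a6*, -0.64 to 0.60 for *Pcbd2* and -0.60 to 0.60 for *Pigb*. The upper ends of *Bcl6*, *Hdac1*, *Brms1*, *Spen*, *Bcl2l1*, *Stat5b*, *Slc16a6*, *Pcbd2* and *Pigb* were reached without *Bcor*WT replicate 2, those of *Ncor1* and *Tbl1x* without *Bcor*WT replicate 1 and those of *Hdac2* and *Sin3a* without *Bcor*ΔE9-10 replicate 1. *Hdac2* also turned, to 0.18, without *Bcor*WT replicate 1, and *Tbl1x*, to -0.034, without *Bcor*ΔE9-10 replicate 1. The cause was not tested. Without *Bcor*WT replicate 1 the adjusted p of *Brms1*, *Spen* and *Bcl2l1* fell under 0.05, but the kept *Bcor*WT library was the high one for all 3. A fit with 1 library in an arm assumes that it varies like the other group, so passing there shows no stability. *Gm10093* stayed between -2.88 and -2.22, with an adjusted p from 2.26e-06 with DESeq2 to 0.453 with 1 library left out. Libraries sharing a replicate number had a correlation of -0.0945 once the group means were removed. With only 2 libraries in each genotype, this value cannot decide whether the replicate numbers pair the libraries. Changes of the 9 genes within the printed intervals were not detectable at this depth and number of libraries.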
